A study of Homo sapiens with 6 samples.

Results

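The 10 genes of matrix turnover examined here were the matrix metalloproteinases MMP1, MMP2, MMP7, MMP9 and MMP14, the cysteine protease cathepsin K (CTSK), the tissue inhibitors of metalloproteinases TIMP1, TIMP2 and TIMP3, and the broad protease trap alpha-2-macroglobulin (A2M). They were taken by gene symbol, older synonyms included, and all 10 were found, on 11 of the 24460 probes of the array (10 of 17446 named genes). The genes were chosen by their array intensities in an earlier look at the same 6 arrays, across cultures and genotypes, so their differences are given as descriptions, and nothing is read from a test of them.

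The samples were kidney organoids at day 35, grown from PKHD1 mutant derivatives of the established human stem cell line H9, and each was hybridised to 1 single-colour array. The 6 groups were PKHD1-/- and PKHD1+/- organoids given 20 µM forskolin from day 14, PKHD1-/- and PKHD1+/- organoids on a gelbrin matrix, made of gelatin and fibrinogen with enzymes that link them, under flow at 4.27 ml/min from day 15, and PKHD1-/- and PKHD1+/- organoids on that matrix without flow (static). All groups therefore carry at least 1 altered copy of PKHD1, the gene of recessive polycystic kidney disease, and 1 line stands for each genotype (C51 for PKHD1-/-, C9 for PKHD1+/-). Line and genotype cannot be told apart. Forskolin activates adenylyl cyclase and so raises cyclic AMP, which is known to make kidney cysts swell. The labels do not place the forskolin organoids on the matrix, and the file names set the forskolin arrays in another scan session than the other 4, so forskolin, matrix and scan session cannot be told apart. Nothing says that organoids were pooled, and no group has a second sample.

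Matrix metalloproteinases are zinc enzymes made as inactive precursors that cut collagens, basement membrane and cell surface proteins. TIMPs block their active sites, and the balance of enzymes and inhibitors sets the pace of matrix turnover. In the kidney these genes are known for their part in tubule outgrowth, fibrosis and the remodelling of matrix around cysts.

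The median probe lay 16.5 and 21.2 intensity units above the blank spots on the PKHD1-/- and PKHD1+/- forskolin arrays, and from 33.6 to 58.3 units above on the other 4. All 6 kidney epithelial markers on the array lay above background in every group. The targeted gene, PKHD1, read between 7.24 and 7.49 on the normalized log2 scale on all arrays, and its probe checks nothing unless it lies in the altered stretch, which the labels leave out. The PKHD1-/- flow array correlated more closely across genes with the PKHD1+/- static array (Pearson r = 0.977) than with the PKHD1-/- static array (0.971). The PKHD1+/- flow array likewise lay closer to PKHD1-/- static (0.981) than to PKHD1+/- static (0.974). The 2 arrays of a culture correlated about as closely, with 0.983 in static, 0.978 in flow and 0.978 with forskolin. An exchange of genotype labels between the 2 flow arrays or between the 2 static arrays was not tested, and it would turn the sign of every genotype difference within that culture. CTSK and the summed muscle markers were higher in PKHD1-/- in all 3 cultures. So were 11.7% of all genes tested, while 9.07% were lower in all 3. These 2 measures were picked with their values known, and the labels were not tested by them.

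Upstream sequences are shown for 2 members whose values lay apart from the other 4 arrays on both forskolin arrays: MMP7, which was lower, and TIMP3, which was higher. Each is the stretch of 250 bases before the gene's start site in RefSeq (GRCh38.p14), at chr11:102530748-102530997 on the minus strand for MMP7 and at chr22:32801455-32801704 on the plus strand for TIMP3, written 5′ to 3′. Capitals mark matches to an AP-1 site (TGANTCA), a cyclic AMP response element (TGACGTCA), its short form (TGACG), a GC box (GGGCGG), all searched on both strands, and a TATA box (TATAAA) searched on the gene's strand.
MMP7: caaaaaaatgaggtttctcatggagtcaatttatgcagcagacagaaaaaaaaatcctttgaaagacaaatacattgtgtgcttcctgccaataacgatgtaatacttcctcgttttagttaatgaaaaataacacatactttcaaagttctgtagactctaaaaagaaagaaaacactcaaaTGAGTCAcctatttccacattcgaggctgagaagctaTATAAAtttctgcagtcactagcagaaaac
TIMP3: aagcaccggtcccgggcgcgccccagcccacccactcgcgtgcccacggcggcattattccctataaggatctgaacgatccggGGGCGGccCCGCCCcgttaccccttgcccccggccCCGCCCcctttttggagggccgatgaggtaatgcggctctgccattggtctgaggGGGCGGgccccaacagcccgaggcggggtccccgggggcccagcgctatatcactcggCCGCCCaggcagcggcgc

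The MMP7 stretch held 1 AP-1 match, beginning 67 bases before the start, and 1 TATA match, beginning 30 bases before it. The TIMP3 stretch held 5 GC box matches and neither of these. An AP-1 match was present in 6.57% of 35116 RefSeq stretches of this length, a TATA match in 6.80% and a GC box in 42.6%. No full cyclic AMP response element, which 1.65% of stretches held, was found in the 4 members listed there (MMP7, MMP14, TIMP1 and TIMP3). The TIMP1 stretch held 1 match to the short form, as did 21.2% of all stretches.

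MMP7, matrilysin, a small metalloproteinase without the hemopexin domain that is made by injured tubules, had the same order of cultures in both genotypes. Its normalized log2 intensity was 9.10 and 9.29 in PKHD1-/- and PKHD1+/- forskolin, 10.82 and 11.03 in PKHD1-/- and PKHD1+/- flow, and 11.64 and 11.66 in PKHD1-/- and PKHD1+/- static. The 3 cultures did not overlap, and the genotypes lay within 0.21 of each other in each culture.

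With forskolin, MMP7 differed from static by -2.53 in PKHD1-/- and -2.37 in PKHD1+/- on the log2 scale (fitted difference -2.45 ± 0.08, limma's moderated SE over 6 arrays, n = 2 pairs). In the authors' deposited table the MMP7 value with forskolin was 315 against 1699 in static for PKHD1-/- and 346 against 1860 for PKHD1+/-, a fold of 5.39 and 5.37 lower. The fitted MMP7 difference ran from -2.54 to -2.36 over the alternatives. Forskolin against flow shares the forskolin arrays: there MMP7 differed by -1.73 ± 0.08.

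Under flow MMP7 also lay below static, with differences of -0.82 in PKHD1-/- and -0.63 in PKHD1+/- (-0.72 ± 0.08). Flow and forskolin are set against the same 2 static arrays.

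MMP1, interstitial collagenase, which opens the triple helix of fibrillar collagens, also read lowest on the forskolin arrays. The array carries 2 MMP1 probes that disagreed. The brighter one read 6.53 and 6.90 in PKHD1-/- and PKHD1+/- forskolin, 7.89 and 8.12 in PKHD1-/- and PKHD1+/- flow, and 8.30 and 8.22 in PKHD1-/- and PKHD1+/- static. The dimmer one lay between 5.73 and 5.79 on all 6 arrays and was above background on 1 of them, PKHD1+/- flow.

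For MMP1 as the mean of both probes, forskolin minus static was -0.79 ± 0.08, and by the brighter probe alone it was -1.54. With 75th percentile scaling the mean of both probes differed by -0.43, so the size depends on the processing. In the authors' deposited table the brighter probe gave 22.4 with forskolin against 147 in static for PKHD1-/-, and 33.4 against 142 for PKHD1+/-. Flow minus static was -0.20 in PKHD1-/- and -0.07 in PKHD1+/- for the mean of both probes. With the brighter probe it was -0.41 and -0.09. In the mean of both probes from the authors' deposited table the PKHD1+/- difference was 0.39, where the dimmer probe has a value on the PKHD1+/- flow array alone, and its other values were counted as 0.

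MMP1 and MMP7 lie in the metalloproteinase cluster of chromosome 11, with MMP20, MMP27, MMP8 and MMP10 between them in the RefSeq gene order. Over the 6 arrays MMP1 and MMP7 correlated with r = 0.986, a description over points that share lines and cultures. Of the 4 genes between them, MMP20 was above background on 6 arrays and the other 3 on 4 arrays each. Their levels lay between 5.71 and 6.21 on all arrays, near the bottom of the scale. MMP10, stromelysin 2, read 5.76 and 5.81 in PKHD1-/- and PKHD1+/- forskolin against 6.02 and 6.21 in PKHD1-/- and PKHD1+/- static. Fitted forskolin minus static was -0.33 for MMP10, -0.14 for MMP20, -0.06 for MMP8 and 0.05 for MMP27. MMP20 (-0.35 and 0.06) and MMP8 (-0.13 and 0.01) went opposite ways in PKHD1-/- and PKHD1+/-.

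**Figure D1:**
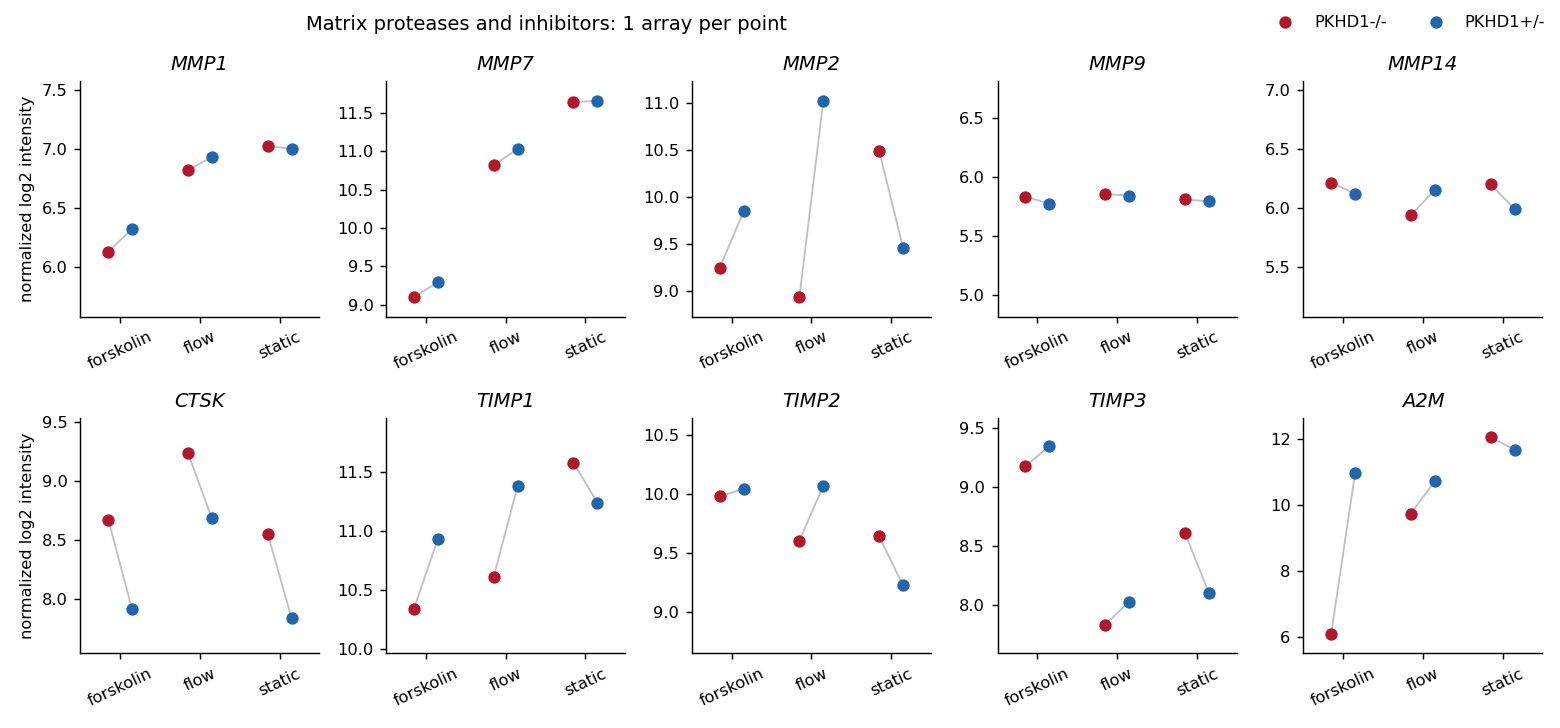
Normalized log2 intensity of the 10 genes (vertical axis, own range in each panel and at least 2 units tall) by culture, with 1 point per array and a grey line joining the PKHD1-/- (left) and PKHD1+/- (right) organoids of a culture. MMP7 and MMP1 sit lowest and TIMP3 highest with forskolin, A2M is at 6.10 on the PKHD1-/- forskolin array, and MMP9 stays between 5.77 and 5.86.

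TIMP3, the inhibitor that binds to the extracellular matrix itself, read highest with forskolin. It read 9.18 and 9.35 in PKHD1-/- and PKHD1+/- forskolin, 7.83 and 8.03 in PKHD1-/- and PKHD1+/- flow, and 8.61 and 8.11 in PKHD1-/- and PKHD1+/- static. Both forskolin arrays lay above the other 4. That arrangement was found for 1 of 10 members and for 24.6% of all genes tested, and the reverse arrangement, both forskolin arrays lowest, for 2 of 10 (MMP1 and MMP7) and for 21.0%.

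Forskolin minus static for TIMP3 was 0.57 in PKHD1-/- and 1.24 in PKHD1+/- (0.90 ± 0.22), and forskolin minus flow was 1.35 and 1.32. Before normalization the TIMP3 spot read 338 and 521 in PKHD1-/- and PKHD1+/- forskolin against 389 and 311 in PKHD1-/- and PKHD1+/- static. Before scaling, the PKHD1-/- forskolin spot was thus the dimmer of its pair, on an array that was dimmer as a whole. In the authors' table, which scales each array to the same median, TIMP3 with forskolin stood at 339 against 188 in static for PKHD1-/- and at 361 against 128 for PKHD1+/-.

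TIMP2, which also helps MMP14 to activate the MMP2 precursor, read 9.98 and 10.04 in PKHD1-/- and PKHD1+/- forskolin, 9.60 and 10.07 in PKHD1-/- and PKHD1+/- flow, and 9.64 and 9.22 in PKHD1-/- and PKHD1+/- static. Forskolin minus static was 0.34 in PKHD1-/- and 0.82 in PKHD1+/-. Flow minus static was -0.03 and 0.85 in PKHD1-/- and PKHD1+/-.

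Markers of skeletal muscle also differed with culture. All 8 markers listed were above background on every array, and their summed log2 level was 96.7 and 94.6 in PKHD1-/- and PKHD1+/- forskolin, 80.7 and 74.3 in PKHD1-/- and PKHD1+/- flow, and 65.1 and 55.6 in PKHD1-/- and PKHD1+/- static. The embryonic myosin MYH3 read 14.52 and 13.73 with forskolin against 9.72 and 7.60 in static. Summed levels of the 6 kidney epithelial markers were 47.5 and 46.7 in PKHD1-/- and PKHD1+/- forskolin, 48.6 and 50.2 in flow, and 50.3 and 51.4 in static. The part of these markers in the MMP7, MMP1 and TIMP3 values was not tested, and in whole organoids fewer cells of a type and less RNA per cell cannot be told apart.

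**Figure D2:**
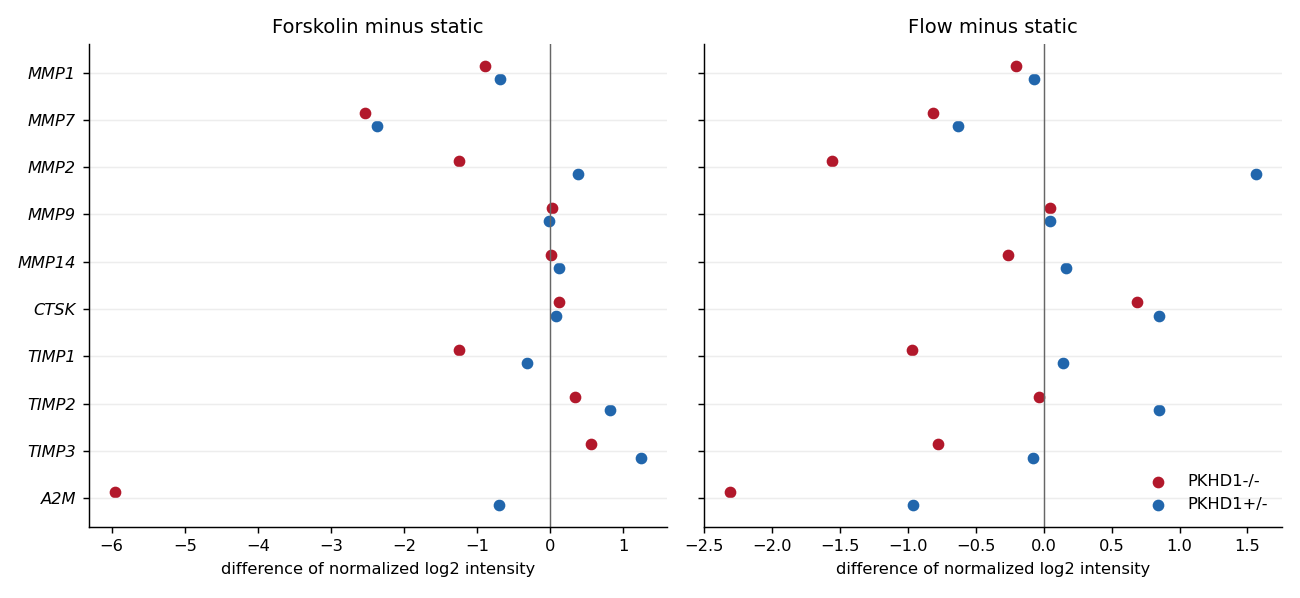
Differences of normalized log2 intensity from static culture for each gene, forskolin on the left and flow on the right (horizontal axes differ in range), with 1 point for PKHD1-/- and 1 for PKHD1+/-. The 2 genotypes nearly coincide for MMP7 (-2.53 and -2.37 with forskolin) and part widely for A2M (-5.96 and -0.70 with forskolin) and MMP2 (-1.56 and 1.56 under flow).

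A2M, a large plasma protein that cages proteases of every class and is best known as a product of the liver, gave the largest pair difference of the 10 members, -5.96 for forskolin minus static in PKHD1-/-. Its log2 level was 6.10 and 10.98 in PKHD1-/- and PKHD1+/- forskolin, 9.75 and 10.73 in PKHD1-/- and PKHD1+/- flow, and 12.06 and 11.69 in PKHD1-/- and PKHD1+/- static. The PKHD1-/- forskolin array stood apart from the other 5, which lay between 9.75 and 12.06.

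On the PKHD1-/- forskolin array the A2M spot read 52.4, which was 8.01 units above the blank spots and just above the background limit of 45.9, and it was not marked as a bad spot. The PKHD1+/- forskolin spot read 1720. In the authors' deposited table the A2M values were 9.25 and 1275, a fold of 138 lower in PKHD1-/-. A2M had the lowest PKHD1-/- minus PKHD1+/- difference of all 16364 genes with forskolin, at -4.88, where 0.416% of genes were lower by 1 unit or more.

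The A2M genotype difference was -0.98 under flow and 0.37 in static, so the fitted mean of -1.83 ± 1.18 (n = 3 pairs) describes no single culture. Leaving out either 1 of the forskolin arrays gave -0.30. Beside A2M on the PKHD1-/- and PKHD1+/- forskolin arrays, the summed log2 levels of 7 liver markers were 42.8 and 42.8, those of 7 endothelial markers 47.9 and 47.8, and those of 9 fibroblast markers 87.5 and 87.9. Of the liver markers, 6 of 7 were above background on the PKHD1-/- forskolin array (not TTR) and 4 of 7 on the PKHD1+/- forskolin array (not ALB, APOB or TTR), while APOA1, AFP, SERPINA1 and FGB were above it on all 6 arrays. The part of these markers in the A2M values was not tested.

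Under flow A2M stood below static in both genotypes, with differences of -2.31 in PKHD1-/- and -0.96 in PKHD1+/-. Both flow arrays lay below both static arrays for 4 of 10 members (A2M, MMP1, MMP7 and TIMP3) and for 18.9% of all genes tested, and above them for 2 of 10 (CTSK and MMP9) and 15.7%. The dim MMP9 turned below static under flow with 75th percentile scaling.

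CTSK, which cuts collagen in acidic spaces and is best known from osteoclasts, was higher in PKHD1-/- in every culture. It read 8.67 and 7.91 in PKHD1-/- and PKHD1+/- forskolin, 9.24 and 8.68 in PKHD1-/- and PKHD1+/- flow, and 8.55 and 7.84 in PKHD1-/- and PKHD1+/- static. The PKHD1-/- value was the higher one in 3 of 3 cultures, by 0.76, 0.55 and 0.72 (0.68 ± 0.07). The 3 PKHD1-/- values still overlapped the 3 PKHD1+/- values, since PKHD1+/- flow lay above PKHD1-/- forskolin and static. A higher value in every culture was seen for 2 of 10 members (CTSK and MMP9) and for 11.7% of all genes tested, and a lower one for 1 of 10 (MMP7) and 9.07%. For the dim MMP9 the differences were 0.06 with forskolin, 0.01 under flow and 0.02 in static. Under flow MMP9 differed by -0.63 in the authors' table, so no genotype direction is read for it. MMP7 differed by -0.02 in static, and under flow by 0.04 with 75th percentile scaling, so its sign in every culture depends on the scaling.

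Flow minus static for CTSK was 0.68 in PKHD1-/- and 0.85 in PKHD1+/-, while forskolin minus static was 0.12 and 0.08. Of 7 osteoclast markers, between 2 and 5 were above background on an array, and the list's summed log2 level lay between 40.8 and 41.1 on all 6. OCSTAMP and ITGB3 were above background on 6 arrays, ACP5, the tartrate-resistant acid phosphatase, on 5, DCSTAMP on 2 and ATP6V0D2 on 1, while CALCR, the calcitonin receptor, and TNFRSF11A, the receptor RANK, were above it on 0. ACP5 read 5.84 and 5.83 in PKHD1-/- and PKHD1+/- forskolin, 6.02 and 5.82 in flow, and 5.93 and 5.85 in static. It was higher in PKHD1-/- in each culture, as CTSK was, but not above background on PKHD1+/- forskolin. The brighter ITGB3 was lower in PKHD1-/- in each culture. It read 6.06 and 6.32 with forskolin, 6.23 and 6.47 in flow, and 6.18 and 6.31 in static. Of the 4 osteoclast markers tested, 1 had a fitted genotype difference above 0 and 3 below. CTSK levels over the arrays were most like those of OGN, a matrix proteoglycan (r = 0.970 over 6 arrays, among 945 varying genes). OGN read 10.59 and 10.05 in PKHD1-/- and PKHD1+/- forskolin, 11.77 and 10.84 in flow, and 10.64 and 9.62 in static. Skeletal muscle markers also had the higher sum in PKHD1-/- within each culture, as given above. All 8 were higher under flow and in static. With forskolin 6 were higher and 2 lower, namely MYOD1 (10.31 and 10.61) and MYOG (8.79 and 8.83). The part of muscle and osteoclast markers in the CTSK values was not tested.

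**Figure D3:**
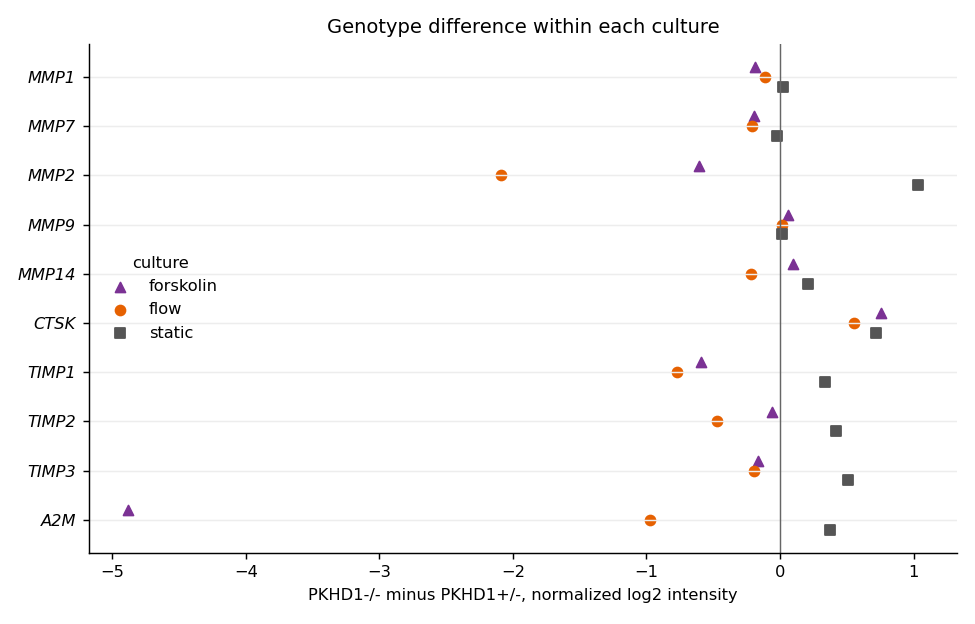
PKHD1-/- minus PKHD1+/- difference of normalized log2 intensity (horizontal axis) for each gene, with 1 point for each culture. CTSK lies to the right of 0 in all 3 cultures (0.55 to 0.76), MMP2 runs from -2.09 under flow to 1.03 in static, and A2M reaches -4.88 with forskolin.

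MMP2, gelatinase A, a basement membrane protease of stromal cells, had opposite genotype orders in different cultures. Its log2 level was 9.24 and 9.85 in PKHD1-/- and PKHD1+/- forskolin, 8.93 and 11.02 in PKHD1-/- and PKHD1+/- flow, and 10.49 and 9.46 in PKHD1-/- and PKHD1+/- static. The 2 highest arrays were thus PKHD1+/- flow and PKHD1-/- static, the arrays whose crosswise likeness over all genes is given above.

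Flow minus static for MMP2 was -1.56 in PKHD1-/- and 1.56 in PKHD1+/-, which cancelled to 0.00 ± 0.83 and ran from -1.19 to 1.19 when 1 array was left out. A difference of at least 1 unit down was seen in 0.898% of all genes for PKHD1-/-, and of at least 1 unit up in 0.880% for PKHD1+/-. With 1 array on each side these opposite values were not tested.

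The genes with levels most like those of MMP2 were CST3, the secreted cysteine protease inhibitor cystatin C, RNF167, a ubiquitin ligase, and PRKCSH, the beta subunit of glucosidase II (r = 0.986, 0.977 and 0.976 over 6 arrays, among 945 varying genes). COL1A1, the chain of type I collagen and a stromal marker, had the same high arrays: it read 11.05 and 11.10 in PKHD1-/- and PKHD1+/- forskolin, 9.26 and 12.50 in flow, and 12.73 and 10.47 in static. COL1A2, the other chain, read 12.89 and 13.31 in flow and 13.11 and 12.73 in static. The 9 fibroblast markers summed to 88.2 and 92.3 in PKHD1-/- and PKHD1+/- flow and to 94.1 and 90.0 in static, with COL1A1 alone differing by -3.25 between genotypes under flow. The list went both ways: under flow 4 of 9 were higher in PKHD1-/-, namely PDGFRA, DCN, LUM and POSTN, and 5 lower, and in static 7 were higher and 2, PDGFRA and DCN, lower. The part of these markers in the MMP2 values was not tested.

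TIMP1, the secreted inhibitor of most metalloproteinases and a gene of wound repair, shared this order in part. It read 10.34 and 10.93 in PKHD1-/- and PKHD1+/- forskolin, 10.61 and 11.38 in PKHD1-/- and PKHD1+/- flow, and 11.58 and 11.24 in PKHD1-/- and PKHD1+/- static. Its genotype difference was -0.59 with forskolin, -0.77 under flow and 0.34 in static. Forskolin minus static was -1.24 in PKHD1-/- and -0.31 in PKHD1+/- (fitted -0.78 ± 0.32).

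**Figure D4:**
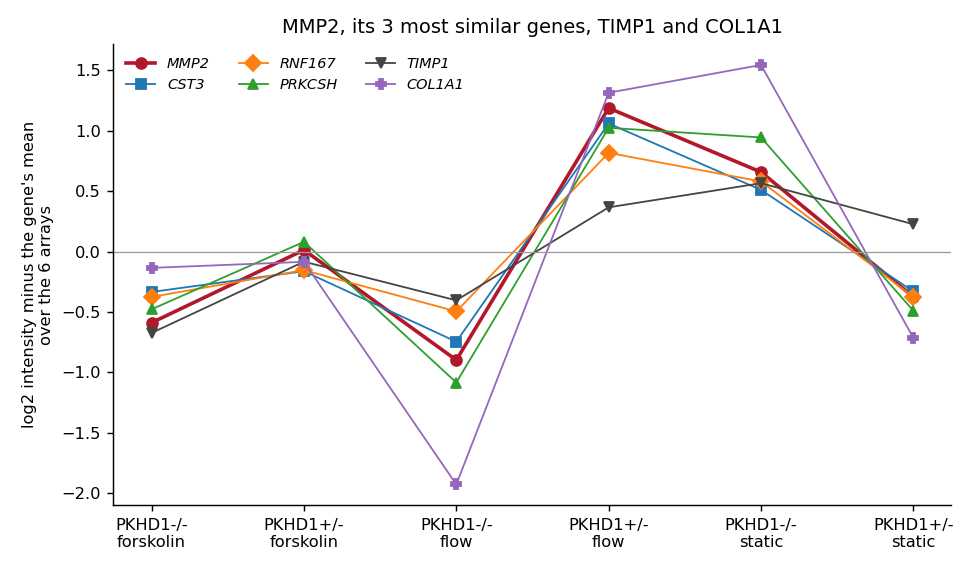
Log2 intensity of MMP2, its 3 most similar genes, TIMP1 and COL1A1, each minus its own mean over the 6 arrays (vertical axis), by array. MMP2 peaks on PKHD1+/- flow (level 11.02) and PKHD1-/- static (10.49), and COL1A1 is highest on the same 2 arrays (12.50 and 12.73); lines join the arrays only to guide the eye.

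MMP9, gelatinase B, a protease of leukocytes and osteoclasts, read 5.83 and 5.77 in PKHD1-/- and PKHD1+/- forskolin, 5.86 and 5.84 in PKHD1-/- and PKHD1+/- flow, and 5.81 and 5.79 in PKHD1-/- and PKHD1+/- static. It was above background on 4 of 6 arrays, not on PKHD1+/- forskolin or PKHD1+/- static, and its spots lay at most 8.80 units above the blanks. Its pair differences were at most 0.07 in size with quantile normalization, but with 75th percentile scaling forskolin minus flow was 0.79 in PKHD1-/- and 0.65 in PKHD1+/-, and flow minus static turned to -0.14 and -0.17. The MMP9 differences therefore depend on the scaling, and no direction is given for them. Of 9 macrophage and leukocyte markers, CD68, CD14, CSF1R, AIF1, LYZ and FCER1G were above background on 6 arrays, CD163 on 4, TYROBP on 2 and PTPRC, the pan-leukocyte antigen CD45, on 1, with sums between 56.2 and 57.1. Their part in the MMP9 values was not tested.

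MMP14, a membrane-bound metalloproteinase that activates MMP2 and cuts collagen, read 6.21 and 6.12 in PKHD1-/- and PKHD1+/- forskolin, 5.94 and 6.15 in PKHD1-/- and PKHD1+/- flow, and 6.20 and 5.99 in PKHD1-/- and PKHD1+/- static. All 6 spots were above background, by 8.27 to 32.6 units above the blanks. The 3 cultures overlapped. Forskolin minus flow in PKHD1-/- was 0.28, but 0.55 with an offset of 16, 0.89 with 75th percentile scaling and 1.55 in the authors' table. The size of the MMP14 differences thus depends on the scaling and on how dim values are treated. With 1 array left out, the fitted MMP14 difference took both signs in every comparison, from -0.06 to 0.15 for genotype and from -0.23 to 0.13 for flow against static.

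The same comparisons were described for 11 further lists of matrix turnover, which hold 130 genes, 118 of them tested. For forskolin against static 1 of the 118 rose and 2 fell (2.54%, beside 1.03% of all 16364 genes) at limma's adjusted p threshold of 0.05. None of the 118 passed for genotype or for flow against static, where 0% of all genes did (528 and 971 genes had an unadjusted p under 0.05), or for forskolin against flow, where 0.0428% did. The median forskolin difference was -0.02 over the 118 genes and 0.00 over all genes.

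CTSD, the aspartic protease cathepsin D of lysosomes, rose: it read 8.83 and 9.36 in PKHD1-/- and PKHD1+/- forskolin against 6.67 and 6.54 in static (2.49 ± 0.19, adjusted p = 0.0484, limma). CTSC, cathepsin C, which activates serine proteases of immune cells, fell: it read 8.81 and 8.97 with forskolin against 10.28 and 10.45 in static (-1.47 ± 0.12, adjusted p = 0.0491, limma). The third was PRSS23, a secreted serine protease, which fell: it read 6.44 and 6.72 with forskolin against 7.65 and 7.87 in static (-1.17 ± 0.07, adjusted p = 0.0445, limma). These adjusted p-values lay just under the threshold of 0.05. The lists were chosen with earlier results of these data known, so the calls are given as descriptions. Of the 15 genes in the cathepsin list, legumain included, 6 were higher and 9 lower with forskolin, with a median of -0.14.

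Of the substrates, FN1, fibronectin, read 9.03 and 9.78 in PKHD1-/- and PKHD1+/- forskolin against 11.65 and 10.94 in static (-1.89 ± 0.62), and COL4A1, a basement membrane collagen, differed by -1.28 ± 0.53. COL5A1, a fibrillar collagen chain, was higher, at 9.99 and 10.86 with forskolin against 9.92 and 9.76 in static (0.58 ± 0.31). None of the 3 passed. Of 16 substrates, 10 were lower and 6 higher with forskolin, with a median of -0.09. PLAUR, the urokinase receptor, stood higher by 0.69 ± 0.24, ADAMTS13, which cuts von Willebrand factor, higher by 0.43 ± 0.13, and SPINT1, an inhibitor of serine proteases of epithelia, lower, at -1.34 ± 0.28, also without passing. RECK, a membrane-anchored inhibitor of metalloproteinases, differed by -0.63, and TIMP4 by 0.04. Forskolin minus flow, on the same forskolin arrays, was 2.37 for CTSD, 0.69 for PLAUR, 0.51 for ADAMTS13 and 0.47 for ADAM15, a membrane-anchored metalloproteinase. It was -2.21 for FN1, -1.75 for SERPINA1, the elastase inhibitor alpha-1-antitrypsin, -1.50 for CTSC and -1.40 for DPP4, a membrane peptidase.

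Forskolin differences of the 14 other metalloproteinases tested ran from -0.33 to 0.17. Their flow differences ran from -0.19 to 0.14, with a median of -0.04 and 12 of 14 lower (all genes: 8904 of 16364 lower). Within genotypes 12 of 14 were lower under flow in PKHD1-/- (all genes: 8160) and 8 of 14 in PKHD1+/- (all genes: 8700). Several of them, such as MMP8 and MMP27, were about as dim as MMP9, and no direction is read from these counts. Under flow DCN, decorin, a collagen-binding proteoglycan, read 11.38 and 11.34 in PKHD1-/- and PKHD1+/- against 12.11 and 12.34 in static (-0.87 ± 0.11, adjusted p = 0.498, limma). SERPINA1 differed by 1.14 ± 0.36 and ACAN, the cartilage proteoglycan cleaved by ADAMTS proteases, by 0.58 ± 0.08. HTRA1, a secreted serine protease, differed by 0.74 ± 0.71 and SERPINI1, neuroserpin, by 0.67 ± 0.29. ADAMTS19 differed by -0.64 ± 0.19, PCOLCE2, an enhancer of collagen processing, by -0.40 ± 0.15 and LAMB1, a laminin chain, by -0.39 ± 0.19.

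By genotype, 15 of 16 substrates had a fitted difference below 0, beside 8245 of 16364 genes, with a median of -0.11 where all genes had 0.00. Within cultures 10 of 16 substrates were lower with forskolin (8142 of all genes), 12 under flow (7522) and 7 in static (8348). FAP, a serine protease of activated fibroblasts, was higher in PKHD1-/- by 0.44 ± 0.15, in 3 of 3 cultures, and SERPINA1 lower, at -0.70 ± 0.29, in 3 of 3. MMP25, a membrane-bound metalloproteinase, was higher by 0.25, ADAMTS5, an aggrecanase, by 0.22 and PLGRKT, a plasminogen receptor, by 0.18. LAMB1 was lower, at -0.33, as were ADAM9, a membrane-anchored metalloproteinase, at -0.31 and PRSS23 at -0.30. None of these passed.

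**Figure D5:**
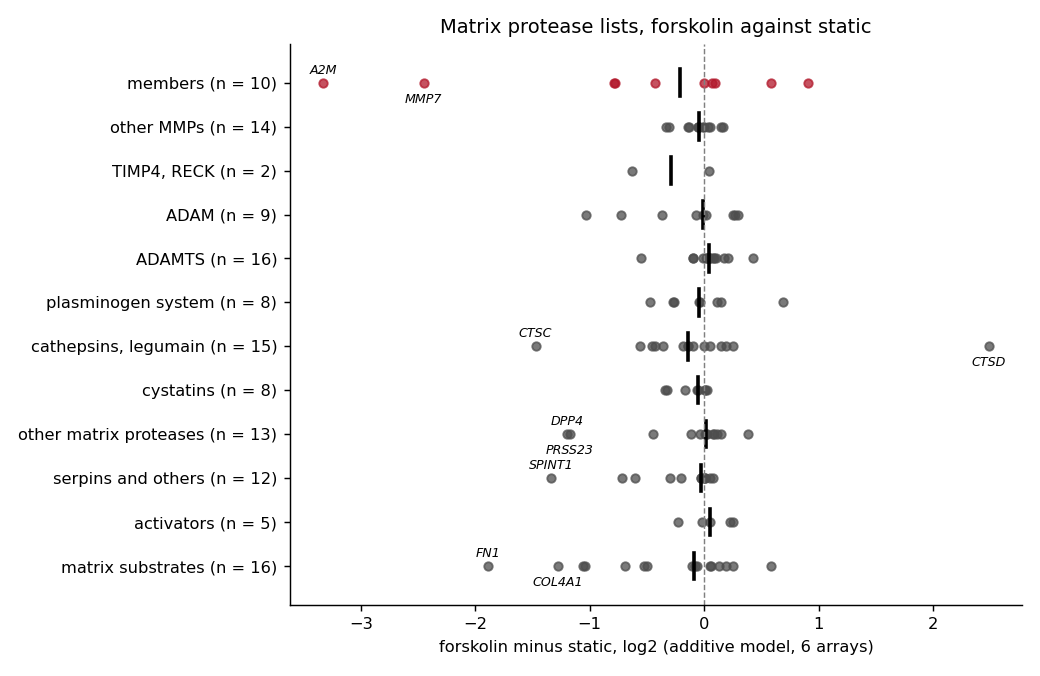
Forskolin minus static difference on the log2 scale (horizontal axis, additive model over 6 arrays) for the 10 genes described (red) and 11 further lists (grey), 1 point per gene, with a black bar at each median and names beyond 1.1 units. A2M (-3.33), MMP7 (-2.45) and CTSD (2.49) lie farthest out, though the A2M value is the mean of -5.96 in PKHD1-/- and -0.70 in PKHD1+/-. The list medians stay between -0.29 (TIMP4 and RECK alone) and 0.05.

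The 6 member proteases had a median forskolin difference of -0.21 and the 4 inhibitors of -0.10, against 0.00 over all genes. These medians had opposite signs in the 2 genotypes. In PKHD1-/- and PKHD1+/- they were -0.44 and 0.03 for the proteases, and -0.45 and 0.25 for the inhibitors. Under flow the medians were -0.02 for the proteases and -0.42 for the inhibitors, against -0.01 over all genes. In PKHD1-/- and PKHD1+/- the flow medians were -0.233 and 0.105 for the proteases, and -0.875 and 0.032 for the inhibitors. The fitted protease values under flow ranged from -0.72 (MMP7) to 0.77 (CTSK), and the inhibitor values from -1.63 (A2M) to 0.41 (TIMP2).

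Genes with levels most like those of a member were taken from those varying by an SD of at least 0.5 over the 6 arrays, by Pearson r, which describes points that share lines and cultures. MMP7 was most like GPC6, a cell surface proteoglycan (r = 0.994), GASK1B (0.991) and PDE5A, a cyclic GMP phosphodiesterase (0.990). TIMP3 was most like CHST2, a sulfotransferase (0.986), A2M like LDHA, lactate dehydrogenase A (0.967), TIMP1 like S100A6, a calcium-binding protein (0.964), and TIMP2 like NNAT, neuronatin (0.961). The next genes in order were PGP (0.979) and TMEM132A (0.978) for TIMP3, CCT8 (0.952) and TCEA2 (0.948) for A2M, RNPS1 (0.948) and WBP11 (0.937) for TIMP1, FADS2 (0.887) and SH3GL1 (0.870) for TIMP2 and DCAF7 (0.961) and COPZ1 (0.960) for CTSK. MMP1 was most like SLC71A2 (0.996), RAB11FIP2 (0.995) and LRPPRC (0.993), and MMP14 like IGF2 (0.979), UNC5B (0.956) and CCDC124 (0.944). The SD limit was not applied to the members, and the dim MMP14 ranged only from 5.94 to 6.21. Among the members themselves, TIMP1 and A2M correlated with r = 0.863 and MMP2 and TIMP1 with 0.788, while MMP7 and TIMP3 had -0.774 and MMP1 and TIMP3 -0.807. All A2M correlations lean on the PKHD1-/- forskolin array, where A2M read 6.10 against 9.75 to 12.06 on the others.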

How the data were processed

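Each of the 6 deposited scanner files holds, per the file headers, 1 intensity per spot: the median brightness in the red channel without background subtraction, merged from scans at 3 gains. The authors' deposited value table also holds an intensity; it proved to be linear in the spot median, reaching 0 at the level of the blanks (2680 spots), with each array at a median of 25. The steps behind it are not given in the sources used here. Spot medians were corrected by normexp with an offset of 50 and quantile normalized on the log2 scale (limma 3.58.1, R 4.3.3). After removal of 205 probes with a bad mark, a gene's value was the mean of its probes, and 16364 of 17446 genes, above background (2 SD over the trimmed mean of the blanks) on at least 2 arrays, were tested. All 10 members were tested, 9 of them above background on all 6 arrays. Of 20236 probe symbols, 17238 were current, 2899 were updated through RefSeq (GRCh38.p14) and 99 kept.

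Comparisons used limma's moderated test in an additive model of culture and genotype fitted to the 6 arrays together. Tests were 2-sided, and p-values were adjusted by Benjamini-Hochberg across the tested genes, at a threshold of 0.05. The model has 2 residual degrees of freedom; values after ± are moderated SEs. With 1 array a group, p-values measure only what the additive model leaves over, which may be technical, and the number of arrays limits the precision. The members, the further gene lists, the tests and the rule for named genes were chosen with earlier results of these data known. The rule names all members, list genes past the threshold, the 4 largest list differences in each direction with 1 sign in every pair, and the 3 genes most correlated with a member; genes named outside it (MMP10, MMP20, MMP27, MMP8, COL1A1, COL1A2, RECK, TIMP4 and marker genes) were chosen for their place or role after their values were seen. The fit was tested on simulated data. Alternatives changed scaling, background correction, offset, source table, filter, probe choice, variance model and the arrays included.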

Additional observations from a re-analysis of the deposited data

Results flagged for a closer look

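These values were set apart because arrays of one genotype or culture moved at least 0.25 log2 units one way while those of another moved as far the other way. None of these differences was tested, since each rests on 1 array a side. MMP2 differed between PKHD1-/- and PKHD1+/- by -0.60 with forskolin, -2.09 under flow and 1.03 in static. Its forskolin minus static difference was -1.25 in PKHD1-/- and 0.39 in PKHD1+/-, its flow minus static difference -1.56 and 1.56, and its forskolin minus flow difference 0.31 and -1.18. TIMP1 differed between genotypes by -0.59 with forskolin, -0.77 under flow and 0.34 in static, and TIMP2 by -0.47 under flow and 0.42 in static. A2M differed between genotypes by -4.88 with forskolin, -0.98 under flow and 0.37 in static, and its forskolin minus flow difference was -3.65 in PKHD1-/- and 0.26 in PKHD1+/-.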

How the results depend on the processing

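Genes past the threshold numbered 169 for forskolin against static (68.0% of them higher), and 6833 with 75th percentile scaling (87.7% higher), 585 with an offset of 16 (56.4%), 456 in the authors' value table (49.1%), 1177 with the trend and robust settings (50.6%) and 41 with no filter (85.4%). For forskolin against flow they numbered 7 (7 higher), and 8376 (89.4% higher), 506 (47.8%), 447 (26.4%) and 1352 (43.8%) under the first 4 of these settings, 11 over genes above background on all arrays and 0 with the brightest probe, where 4050 had an unadjusted p under 0.05. Flow against static gave 1 with trend and robust settings and otherwise 0. Leaving out 1 array, which leaves 1 residual degree of freedom, gave from 0 to 0 in every comparison, and genotype gave 0 under every alternative. The 75th percentile scaling moved the median of all genes by 0.31 for forskolin against static and -0.11 for flow against static. Of 40 member differences, 21 kept their sign under every alternative run and 19 did not; of the 7 of at least 1 unit, A2M under flow (0.02 without PKHD1-/- static) and A2M for forskolin against flow (0.59 without PKHD1-/- forskolin) changed sign. MMP2 under flow ran from -1.19 to 1.19 with 1 array left out. The additive model itself pairs the genotypes within each culture, and without the culture term genotype also gave 0. A further block by replicate number could not be fitted, since each group has 1 sample and the labels carry no numbers.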
